A study of Drosophila melanogaster with 9 samples.

Results

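The odorant (Or), gustatory (Gr) and ionotropic (Ir) receptor genes of Drosophila melanogaster were followed through whole embryos. Members were all genes whose platform symbol begins with Or, Gr or Ir followed by a number and a letter, read from probe sets that carry 1 symbol. The rule gave 165 genes (56 Or, 56 Gr and 53 Ir) from 185 probe sets, out of 11982 genes named on the array. Where a gene had several probe sets, the one of highest mean over the 9 arrays stood for it.

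The 3 families serve smell and taste in different ways. Odorant receptors are membrane channels in which a tuning subunit pairs with the co-receptor Orco. Gustatory receptors detect sugars, bitter substances and, in a pair, carbon dioxide. Ionotropic receptors descend from synaptic glutamate receptors and use the co-receptors Ir8a, Ir25a, Ir76b and Ir93a to sense acids, amines, temperature and humidity. In the embryo the neurons of the larval chemosensory organs are born at middle stages, and larval receptors are known to be switched on late in embryonic life.

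Total RNA of dechorionated embryos, labelled as stages 10 to 13, was hybridised to Affymetrix Drosophila Genome 2.0 arrays, with 3 arrays per group. The mutant group was homozygous for the insertion allele cbtEP(2)2237E1 of cabut (cbt), a zinc finger transcription factor gene. These embryos were sorted as the GFP-negative ones from a stock with a CyO balancer that carries twi-eGFP. The control group was w1118, also passed through the sorter. The third group, 69B>Cbt, carried UAS-Cbt under the driver 69B-Gal4, which the labels place in the epidermis, and these embryos are labelled as homozygous too. Each mutant and each 69B>Cbt RNA came from roughly 1000 embryos, while the labels give no such number for w1118. A group with 69B-Gal4 alone or UAS-Cbt alone was not analysed here, so driver and transgene cannot be told apart. The labels do not state whether the 3 samples of a group were collected separately, and p-values cover just the scatter of these samples, which could be technical. In RNA of whole embryos, fewer cells of a type and less RNA per cell cannot be told apart.

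The level of cbt was checked first. Read from 1 probe set, it was 6.73 ± 1.02 in w1118 (log2 level, mean ± SD, n = 3), 4.26 ± 0.42 in the mutant and 3.36 ± 0.33 in 69B>Cbt. The lower cbt level of the mutant against w1118 was not called in limma with all 9 arrays. It was called in 2 of 17 other settings, over which the difference ran from −3.17 to −1.79 log2 units. The arrays labelled as overexpressing Cbt thus had less cbt signal than the control, with a log2 difference of −3.37 ± 0.48 (SE) and an adjusted p of 0.0436 in limma. That call was lost without any 1 of 7 arrays, all but w1118 replicates 2 and 3, with adjusted p between 0.074 and 0.179. The difference was −3.71 without w1118 replicate 2, with an adjusted p of 0.000641. The group is therefore called by its label, 69B>Cbt, throughout. In addition, w1118 replicate 2 stood apart from its group. Over all probe sets it correlated at 0.89 with each of the other w1118 arrays, which correlated at 0.99 with each other, and at 0.97 to 0.98 with the 69B>Cbt arrays. Muscle markers moved with this split, since the median log2 level of 5 such genes was 5.63, 1.29 and 4.92 on w1118 replicates 1 to 3. In the mutant it ranged from 2.75 to 4.0 and in 69B>Cbt from 0.91 to 1.29. Comparisons with w1118 and counts above background in w1118 are also given without replicate 2, while the counts by family and by position are over all 9 arrays. The part of this split in the results was not tested.

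Nearly all receptor genes lay at the background of the arrays. Background was set for each array by the brightest of its 17 Tag control probe sets, which have no target in the fly. That level was 0.58, 0.95 and 0.58 on w1118 replicates 1 to 3, 0.74, 0.63 and 0.75 on the mutant arrays, and 1.20, 1.20 and 0.83 on the 69B>Cbt arrays. Only 12 of the 165 genes exceeded it in all 3 arrays of at least 1 group, and 100 exceeded it on no array. A further 53 exceeded it on 1 or more arrays but on all 3 of no group. If w1118 replicate 2 was left out, 21 genes instead of 12 were above background on all arrays of a group. The median receptor gene had a mean log2 level of 0.50 over the 9 arrays, and 6 genes had a mean above 1.

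By group, 5 genes were above background in all 3 w1118 arrays, 10 in all 3 mutant arrays and 3 in all 3 69B>Cbt arrays. These are 3.03%, 6.06% and 1.82% of the receptor genes. Over all 18769 probe sets that are not controls, the share passing the same rule was 47.9% in w1118, 51% in the mutant and 40.7% in 69B>Cbt. Of the 11982 named genes, again with 1 probe set each, it was 60.3%, 64.3% and 52.5%. With w1118 replicate 2 left out, 16 receptor genes passed on the other two w1118 arrays, against 7 without replicate 1 and 7 without replicate 3. The share of all probe sets without replicate 2 was 57.9%. Counts also differed between the arrays of a group. On the 69B>Cbt arrays 8, 9 and 30 receptor genes exceeded background, where the control level was 1.20, 1.20 and 0.83. Each of these control levels was above those of the mutant arrays. The genes that passed in the mutant but not in 69B>Cbt, except Or35a, had higher means in 69B>Cbt. For Gr39a the means were 1.16 in 69B>Cbt and 0.83 in the mutant, and for Ir25a 1.15 and 0.82. Those of Or35a were 0.60 and 1.45. The counts thus do not rank the groups by receptor level.

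**Figure D1:**
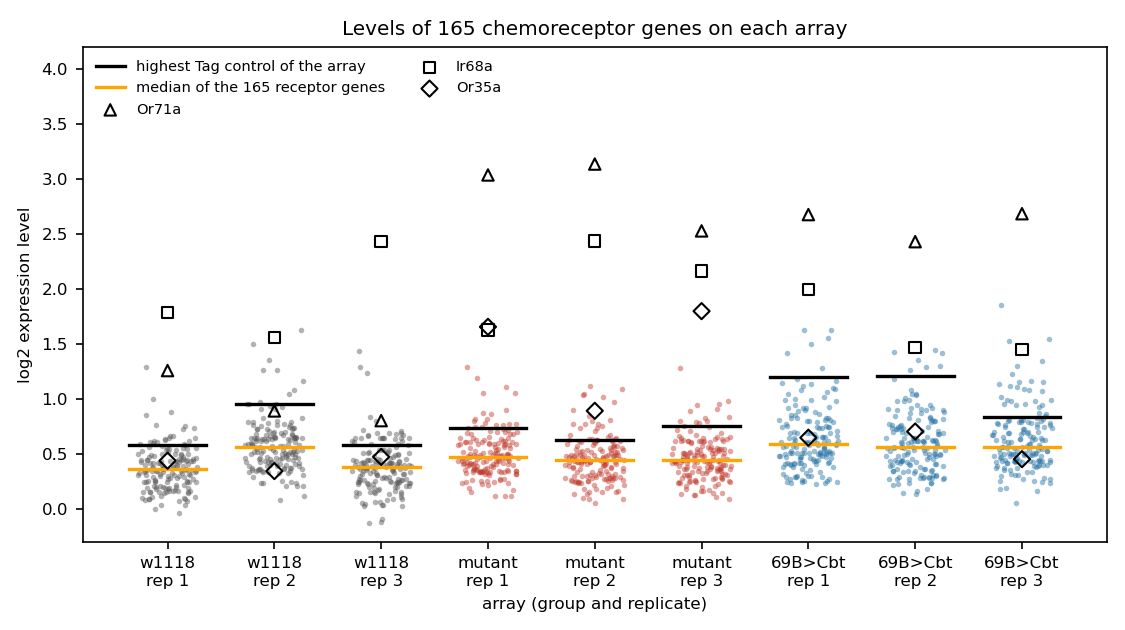
Log2 expression level (vertical axis) of the 165 receptor genes on each of the 9 arrays (horizontal axis, group and replicate). Each point is 1 gene, the black bar is the highest Tag control of the array, the orange bar is the median receptor gene, and open symbols mark Or71a, Ir68a and Or35a. The medians lie between 0.36 and 0.59, below the black bar on every array, and Or71a is the highest receptor gene on all 6 mutant and 69B>Cbt arrays.

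The median of the gene means was 0.51 for Or, 0.49 for Gr and 0.49 for Ir genes. At least 1 group was above background for 3 of 56 Or genes (Or71a, Or43a and Or35a). Among the 56 Gr genes there were 7 (Gr47b, Gr77a, Gr2a, Gr64f, Gr39a, Gr63a and Gr22a), and among the 53 Ir genes 2 (Ir68a and Ir25a). In no array at all were 33 Or, 35 Gr and 32 Ir genes above it. The single gene above background on all 9 arrays was Ir68a.

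Among the Or genes, Or71a had the highest mean of all 165. It encodes an odorant receptor of the adult maxillary palp. Its log2 level was 1.26, 0.89 and 0.80 in w1118, 3.04, 3.14 and 2.53 in the mutant, and 2.68, 2.43 and 2.68 in 69B>Cbt. The mutant and 69B>Cbt arrays overlapped each other and lay wholly above the w1118 arrays. In w1118 the gene was above background on 2 of 3 arrays, with replicate 2 just under it. Among all probe sets, Or71a stood between the 45.7 and 54.6 percentiles of the w1118 arrays, 66.5 and 69.9 of the mutant arrays and 68.7 and 72.1 of the 69B>Cbt arrays. These percentiles rank signal, which differs between probe sets for reasons other than abundance.

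Or71a lies on chromosome arm 3L within the span of Plp, which encodes a pericentrin-like protein of the centrosome. Of the 3 Plp probe sets, the bright one read 7.07, 3.04 and 6.69 in w1118, 3.62, 4.65 and 4.75 in the mutant, and 2.91, 3.54 and 2.86 in 69B>Cbt. Relative to w1118 its means ran opposite to those of Or71a, at 5.60 in w1118, 4.34 in the mutant and 3.10 in 69B>Cbt. From the mutant to 69B>Cbt both means fell, that of Or71a from 2.90 to 2.60. The bright Plp probe set was as low on w1118 replicate 2 as on the 69B>Cbt arrays. Its adjusted p in limma was 0.785 for the mutant and 0.132 for 69B>Cbt against w1118. This Plp probe set passed in both without w1118 replicate 2, at −2.54 (adjusted p = 0.00241) and −3.78 log2 units (adjusted p = 0.000187). The other two Plp probe sets were above background in all 3 arrays of no group. Whether signal from one gene adds to the other was not tested.

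Or35a, a broadly tuned receptor of adult coeloconic sensilla that is also used in the larval dorsal organ, was detected in 1 group only. Its log2 level was 0.44, 0.34 and 0.47 in w1118, 1.65, 0.89 and 1.80 in the mutant, and 0.65, 0.70 and 0.45 in 69B>Cbt. The 3 mutant arrays were above background and above every array of the other groups, with replicate 2 the lowest of them. Or35a has 2 further probe sets, which were above background in no array. In mutant against w1118 their adjusted p was 0.453 and 0.985 in limma.

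Or43a, an antennal receptor that responds to benzaldehyde, read 0.74, 1.63 and 0.58 in w1118, 1.06, 1.09 and 0.98 in the mutant, and 1.09, 1.42 and 1.55 in 69B>Cbt. The w1118 arrays spanned the range of both other groups. It was above background in all w1118 and all mutant arrays, by only 0.004 log2 units on the closest w1118 array. The co-receptor gene appears under the symbol Orco, which the naming rule does not take in. Its mean log2 level was 0.44 ± 0.13 in w1118, 0.46 ± 0.01 in the mutant and 0.64 ± 0.22 in 69B>Cbt (SD, n = 3). Orco was above background on 0 of 9 arrays. Of 25 measured odorant receptors used in the larval dorsal organ, Or35a in the mutant was the only one above background in a group. Of 7 receptors of the maxillary palp, Or71a was the only one.

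Among the Ir genes, Ir68a was the brightest, with a mean of 1.88 over the 9 arrays, second among all 165 genes. It takes part in humidity sensing. Its log2 level was 1.78, 1.56 and 2.43 in w1118, 1.62, 2.43 and 2.16 in the mutant, and 1.99, 1.47 and 1.45 in 69B>Cbt. The 3 groups overlapped, and no comparison passed (adjusted p of 0.949, 0.502 and 0.426 in limma). Ir25a, the most widely used co-receptor of the family, read 0.88, 1.26 and 0.54 in w1118, 0.86, 0.77 and 0.82 in the mutant, and 1.14, 1.35 and 0.95 in 69B>Cbt. Only in the mutant were all 3 arrays of Ir25a above background, by as little as 0.07 log2 units, while 2 of 3 arrays were above it in each other group.

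The other co-receptors were above background in all 3 arrays of no group. Ir93a exceeded it on 2 of 3 mutant arrays and 1 of 3 69B>Cbt arrays, Ir8a on 1 of 3 69B>Cbt arrays and Ir76b on 0 of 9. The group means of Ir8a, which serves acid sensing, were 0.46 ± 0.16, 0.58 ± 0.11 and 0.95 ± 0.20 in w1118, the mutant and 69B>Cbt (SD, n = 3). Those of Ir76b, used for salt and amines, were 0.52 ± 0.36, 0.35 ± 0.10 and 0.77 ± 0.19. Those of Ir93a, used in temperature and humidity sensing, were 0.57 ± 0.14, 0.68 ± 0.05 and 0.95 ± 0.04. Each of these means was highest in 69B>Cbt, the group whose control level was highest as well. Of 15 measured antennal ionotropic receptors, 1 was above background in w1118 (Ir68a), 2 in the mutant (Ir68a and Ir25a) and 1 in 69B>Cbt (Ir68a).

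Among the Gr genes, Gr47b had the highest mean, at 1.33. It read 1.29, 1.50 and 1.29 in w1118, 1.29, 0.90 and 1.28 in the mutant, and 1.42, 1.18 and 1.85 in 69B>Cbt. It was above background on 8 of 9 arrays and missed it by 0.03 log2 units on 69B>Cbt replicate 2. Gr77a read 0.76, 1.26 and 0.83 in w1118, 1.19, 1.04 and 0.89 in the mutant, and 1.18, 0.98 and 0.98 in 69B>Cbt, so its groups overlapped too.

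Gr64f, a co-receptor of the sugar-sensing neurons, read 0.55, 1.08 and 0.71 in w1118, 0.64, 0.97 and 0.69 in the mutant, and 1.55, 1.44 and 1.34 in 69B>Cbt. All 3 69B>Cbt arrays were above background and above every array of the other groups. The next gene on its arm, Gr64e, is another sugar receptor but shares its probe set with Gr64d and was not counted. Of 5 measured sugar receptors, Gr64f in 69B>Cbt was the only one above background in a group.

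Gr39a, a locus with several alternative first exons that is expressed in bitter-sensing neurons, read 0.50, 1.35 and 0.80 in w1118, 0.87, 0.84 and 0.79 in the mutant, and 1.12, 1.26 and 1.11 in 69B>Cbt. It passed in the mutant only, and its 4 other probe sets passed in no group. Of 5 measured bitter receptors used in many neurons, it was the only one to pass. Gr2a read 0.36, 0.93 and 0.68 in w1118, 1.05, 1.11 and 0.94 in the mutant, and 1.62, 1.08 and 1.30 in 69B>Cbt. Both other groups of Gr2a lay above all w1118 arrays.

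Of the carbon dioxide receptor pair, Gr63a read 0.72, 0.76 and 0.68 in w1118, 0.76, 0.81 and 0.91 in the mutant, and 1.01, 0.82 and 0.74 in 69B>Cbt. It passed in the mutant by 0.02 log2 units. Its partner Gr21a had group means of 0.58 ± 0.11, 0.62 ± 0.13 and 0.82 ± 0.24 in the same order (SD, n = 3) and passed in no group. Gr22a was above background on all 3 w1118 arrays (0.64, 0.95 and 0.64) and on none of the others (0.46 to 0.69). On the closest w1118 array it was above by 0.0005 log2 units.

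**Figure D2:**
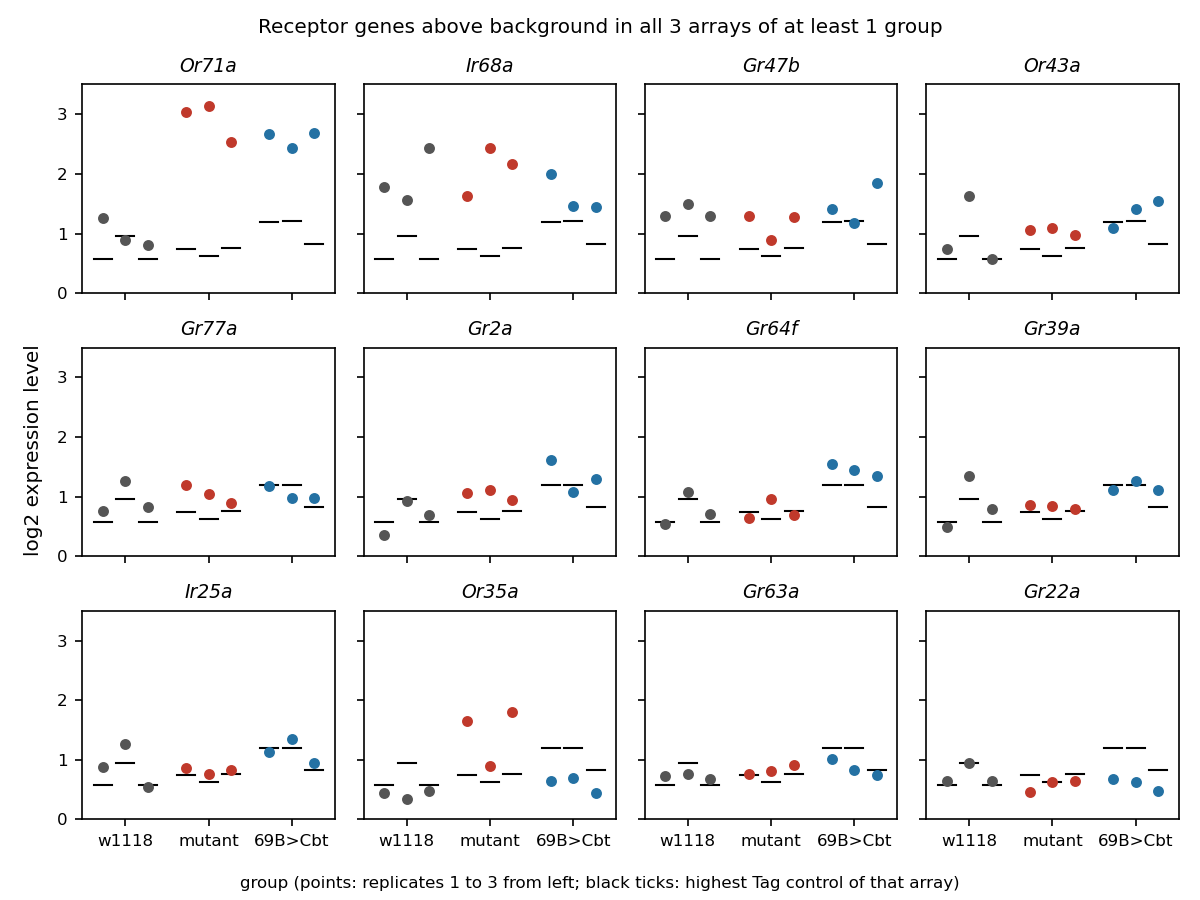
Log2 expression level (vertical axis) of the 12 receptor genes above background in all 3 arrays of at least 1 group, 1 panel per gene. Points are single arrays, ordered by group and replicate along the horizontal axis, and black ticks are the highest Tag control of the same array. Or71a is higher on the 6 mutant and 69B>Cbt arrays (2.43 to 3.14) than in w1118 (0.80 to 1.26), Or35a stands out in the mutant, and most other points lie close to their tick.

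The margins to the threshold were small for many genes. In w1118 the closest above it were Gr22a, Or43a and Gr77a, with 0.0005, 0.0043 and 0.18 log2 units to spare on their least favourable array. The closest below were Or65a, Gr85a and Gr64f, with margins of −0.0029, −0.02 and −0.03. In the mutant the margins were 0.02 for Gr63a, 0.04 for Gr39a and 0.07 for Ir25a, against −0.04 for Ir75b, −0.08 for Ir93a and −0.09 for Gr64f. In 69B>Cbt they were 0.24 for Gr64f, 0.27 for Ir68a and 1.23 for Or71a, against −0.03 for Gr47b, −0.06 for Ir25a and −0.08 for Gr39a. When 0.5 log2 units were required above the control, 2 genes passed in w1118, 2 in the mutant and 1 in 69B>Cbt.

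The first comparison was mutant against w1118. These embryos came from different stocks, so the cbt insertion and other differences between the stocks cannot be told apart. In limma, fitted over all 18769 probe sets with Benjamini-Hochberg adjustment at 0.05, 1 of 165 receptor genes was called. That is 0.606%, against 0.133% of all probe sets (25). The gene was Or71a, higher in the mutant by 1.92 ± 0.20 log2 units (SE, adjusted p = 0.0143), with all 3 mutant arrays above all 3 w1118 arrays. Without w1118 replicate 2 the difference was 1.87 with an adjusted p of 0.00129. The call was lost without mutant replicate 1 (1.85, adjusted p = 0.0676), mutant replicate 2 (1.80, adjusted p = 0.064) or w1118 replicate 3 (1.83, adjusted p = 0.0737). Leaving out 69B>Cbt replicate 1, 2 or 3, which enter only through the shared spread, ended the call as well (adjusted p of 0.0521, 0.0505 and 0.0602). The call of Or71a was lost too when only these 2 groups were fitted (adjusted p = 0.215).

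Next by p-value in the mutant comparison came Or35a, with means of 1.45 in the mutant and 0.42 in w1118 and an adjusted p of 0.255, which did not pass. Since no w1118 array of Or35a was above background, its mutant level is given as at least 1.68-fold higher. Or35a passed without mutant replicate 2 (adjusted p = 0.0334) and without w1118 replicate 2 (adjusted p = 0.0278). Or22a, an antennal ester receptor, Ir75a, an antennal acid receptor, and Or63a, a larval odorant receptor, had adjusted p between 0.587 and 0.603 in limma. No fold is given for these 3, since Or22a was above background on 0 of 3 w1118 and 2 of 3 mutant arrays, and Ir75a and Or63a on none of either. Their adjusted p without w1118 replicate 2 was 0.0847, 0.293 and 0.292. For 10 genes every mutant array lay above every w1118 array, and for 2 genes below, which is 6.06% and 1.21% of the family. Over all probe sets these shares were 5.38% and 4.42%. The counts without w1118 replicate 2 were 56 and 4 (33.9% and 2.42%), against 28.4% and 20.3% of all probe sets. Also without w1118 replicate 2, 4 receptor genes were called (Or71a, Or35a, and Gr93c and Ir76a, which were named after their values were seen), while 21.2% of all probe sets were.

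The second comparison, 69B>Cbt against w1118, again called Or71a alone, higher by 1.61 ± 0.20 log2 units (SE, adjusted p = 0.0226 in limma). This is 0.606% of the receptor genes, against 0.373% of all probe sets (70). Without w1118 replicate 2 the difference was 1.57 with an adjusted p of 0.00098. The call was lost without w1118 replicate 3 (1.52, adjusted p = 0.0955), without 69B>Cbt replicate 1, 2 or 3 (1.57, 1.70 and 1.57, adjusted p of 0.125, 0.0878 and 0.141), and in a fit of these 2 groups alone (adjusted p = 0.059). The first comparison and this one share their 3 w1118 arrays, so the pair of Or71a results is not independent.

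Another 4 genes had the smallest p-values of this comparison without passing. Gr64f differed by 0.67 ± 0.16 log2 units (adjusted p = 0.0937 in limma) and Gr2a by 0.67 ± 0.19 (adjusted p = 0.0969). Gr23a, another locus with alternative first exons, was above background on 2 of 3 w1118 and 1 of 3 69B>Cbt arrays and differed by 0.43 ± 0.12 (adjusted p = 0.0969). The other probe sets of Gr23a and of Ir93a were above background on no w1118 or 69B>Cbt array. Ir93a, above it on 0 of 3 w1118 and 1 of 3 69B>Cbt arrays, had the same adjusted p of 0.0969, and no fold is given. All 4 passed without w1118 replicate 2, with adjusted p of 0.00262 for Gr64f, 0.00929 for Gr2a, 0.0312 for Gr23a and 0.0122 for Ir93a. Arrays did not overlap for 27 genes that were higher in 69B>Cbt and 0 that were lower, 16.4% and 0% of the family. Over all probe sets these shares were 17% and 12%. Leaving out w1118 replicate 2 gave 94 and 2 (57% and 1.21%), against 41.5% and 27.2% of all probe sets. Also without w1118 replicate 2, 22 receptor genes were called, 21 of them higher, which is 13.3% of the family, against 40.6% of all probe sets.

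The third comparison, 69B>Cbt against the mutant, called 0 receptor genes in limma, against 0.256% of all probe sets (48). At an unadjusted limma p under 0.05 there were 17 of 165, against 18.9% of all probe sets. The same count was 2 of 165 for mutant against w1118, where 9% of all probe sets passed. For 69B>Cbt against w1118 it was 17 of 165, against 31.9%. Gr64f was higher in 69B>Cbt by 0.68 ± 0.16 log2 units (adjusted p = 0.126). It passed when only these 2 groups were fitted (adjusted p = 0.0237) and without w1118 replicate 2 (adjusted p = 0.0151). In these 2 settings 1 and 2 receptor genes were called (0.606% and 1.21%), against 13.8% and 16% of all probe sets. Or35a was at least 1.29-fold higher in the mutant, with no 69B>Cbt array above background, means of 1.45 and 0.60 and an adjusted p of 0.143, and it passed without w1118 replicate 2 (adjusted p = 0.0441). Or71a differed by −0.30 ± 0.20 (adjusted p = 0.413), with overlapping arrays. Gr89a, a receptor of bitter neurons, was above background on 2 of 3 69B>Cbt and 1 of 3 mutant arrays and differed by 0.57 ± 0.17 (adjusted p = 0.168 in limma). Gr23a, above it on 1 of 3 arrays of each, differed by 0.38 ± 0.12 (adjusted p = 0.171). Ir75a, above it on 0 of 9 arrays, had an adjusted p of 0.188. Arrays did not overlap for 38 genes that were higher and 2 that were lower in 69B>Cbt, 23% and 1.21% of the family, where all probe sets gave 22.4% and 16.2%.

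Across the 3 groups at once, the moderated F test of limma called 1 receptor gene, Or71a (adjusted p = 0.0123), against 0.389% of all probe sets (73). The next smallest adjusted p was 0.131, for Or35a. No receptor gene was called in the F test without w1118 replicate 3, 69B>Cbt replicate 1 or 69B>Cbt replicate 3. The share of all probe sets called was then 0.373%, 0.181% and 0.144%. Without w1118 replicate 2, 15 receptor genes were called, against 37.2% of all probe sets.

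**Figure D3:**
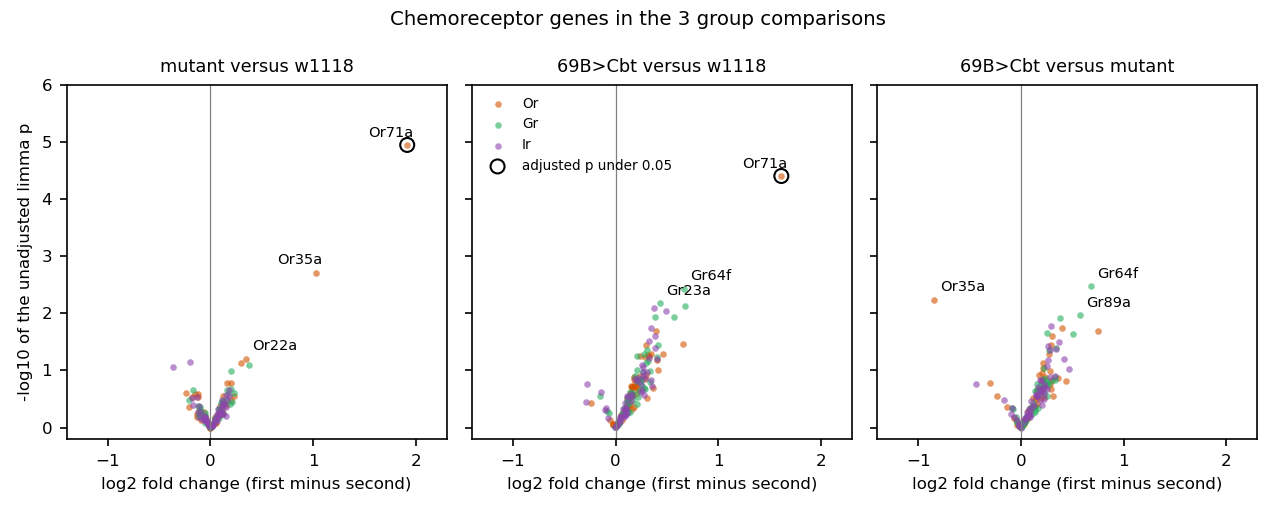
Receptor genes in the 3 group comparisons, with the log2 fold change (first group minus second) on the horizontal axis and −log10 of the unadjusted limma p-value on the vertical axis. Colours mark Or, Gr and Ir genes, and rings mark an adjusted p under 0.05. Or71a stands alone at 1.92 and 1.61 in the comparisons with w1118, and most points lie right of 0 in both panels with 69B>Cbt.

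Most receptor genes had slightly higher values in 69B>Cbt. In the main fit, Or71a against w1118 was the only one of them called. The fold change was above 0 for 149 of 165 genes (90.3%) against w1118 and for 139 (84.2%) against the mutant, where all probe sets gave 60.4% and 61.4%. The median differences were 0.16 and 0.15 log2 units, against 0.09 and 0.08 over all probe sets. Other features at background behaved alike in direction. Of 4744 other probe sets that exceeded the control level on no array, 87% were higher in 69B>Cbt against w1118 and 87% against the mutant. The Tag controls were higher in 15 and 16 of 17 cases, with median differences of 0.32 and 0.14. In mutant against w1118, 104 of 165 genes were above 0 (63%) with a median of 0.04, where all probe sets gave 52% and 0.01, the 4744 gave 56.2%, and 12 of 17 Tag controls were higher with a median of 0.08. The share above 0 without w1118 replicate 2 was 76.4% of receptor genes for the mutant and 95.8% for 69B>Cbt, against 77.2% and 93.4% of the 4744. With array medians set equal, the median differences of the receptor genes against w1118 and the mutant fell to 0.07 and 0.02 for 69B>Cbt, and with cyclic loess to 0.04 and 0.01.

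The position of a gene was set beside its detection. All 165 genes matched RefSeq records by gene ID (assembly Release 6 plus ISO1 MT, used for names, lengths and neighbours only), 31 of them on arm 2L, 45 on 2R, 28 on 3L, 40 on 3R and 21 on X. Their median gene length was 1666 bases, against 2159 for all protein-coding genes. Receptor genes often lie in clusters, and 71 had another receptor gene as a direct coding neighbour. Of these 71, 2 were above background in a group (Gr64f and Gr22a), against 10 of the 94 without such a neighbour. The 24 genes inside the span of another coding gene included 3 above background (Or71a, Gr77a and Gr39a), against 9 of the other 141. Gr2a and Gr64f overlapped a neighbour in part (futsch and CG11593).

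These partners differed in level. CG11593 read 3.21 to 6.42 on the 9 arrays and had its lowest group mean in 69B>Cbt (3.37 ± 0.14, against 5.54 ± 1.13 in w1118, SD, n = 3), where Gr64f was highest. Mondo, a glucose-sensing transcription factor gene that encloses Gr39a, read 4.39 to 6.74. The brightest futsch probe set had means of 1.12, 1.10 and 1.43 in w1118, the mutant and 69B>Cbt, and CG13252, which encloses Gr77a, had 2.06, 1.21 and 1.23. The part of these partners in the receptor signals was not tested.

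Genes that act earlier in sense organ development were counted by the same rule. Of 11 fate genes, 7 were above background in w1118, 8 in the mutant and 8 in 69B>Cbt, beside the 60.3%, 64.3% and 52.5% of all named genes. They included ato, the proneural gene of chordotonal and coeloconic olfactory organs (3.01 ± 0.84, 2.98 ± 0.85 and 2.28 ± 0.20, SD, n = 3), and sens, needed by sensory precursors (5.47 ± 0.94, 4.40 ± 0.63 and 4.17 ± 0.33). Fate genes differed in direction. Group means were lowest in 69B>Cbt for ato, sens, ase and pros, and lowest in the mutant for pdm3. The mean of lz was lowest in 69B>Cbt too, but lz was above background on no array. Those of ct were 2.18 in w1118, 1.35 in the mutant and 1.34 in 69B>Cbt. Means of Poxn, cato and acj6 were highest in 69B>Cbt. The mean of amos was highest in the mutant (1.36 ± 1.07, 2.39 ± 0.51 and 1.63 ± 0.11, SD, n = 3). The factors acj6 and pdm3, which take part in choosing odorant receptors in adult neurons, passed in no group. Of 7 neuron markers, 5, 4 and 4 passed. The early neuronal gene elav read 7.26 ± 1.53, 6.02 ± 0.62 and 5.51 ± 0.27. The synaptic vesicle gene nSyb read 1.90 ± 0.43, 1.79 ± 0.10 and 1.95 ± 0.34, and the active zone gene brp 0.99 ± 0.18, 0.78 ± 0.05 and 1.19 ± 0.14. Of 5 epidermis and segmentation genes, 4 passed in each group, and of 4 germline genes 2, 1 and 0. No gene of these lists was called in any comparison with all arrays. Without w1118 replicate 2, 2 fate genes were called higher and 5 lower in each comparison with w1118. Of the neuron markers 2 were called lower in each. Of the epidermis and segmentation genes 1 was called lower in the mutant and 3 in 69B>Cbt, and of the germline genes 0. The share of all probe sets called was 21.2% for the mutant and 40.6% for 69B>Cbt. In w1118 without that array, 9 fate genes and 6 neuron markers were above background.

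Among other families with a part in chemical sensing, 14 of 47 odorant-binding protein genes were above background in w1118, 17 in the mutant and 10 in 69B>Cbt. For the 12 measured synaptic glutamate receptor genes, relatives of the Ir family, the counts were 2, 3 and 1. They were 2, 2 and 1 for 27 pickpocket channels, 3, 2 and 0 for 13 TRP channels, 1, 1 and 0 for 12 CheA and CheB genes, and 0 in each group for 5 SNMP and other accessory genes. In w1118 without replicate 2 these counts were 15 for odorant-binding proteins, 10 for glutamate receptors, 6 for pickpocket channels, 5 for TRP channels, and 1 each for the CheA and CheB and the accessory genes. Over the 3 comparisons, 1 gene of these lists was called, in 69B>Cbt against w1118. Obp99b, which encodes a secreted odorant-binding protein, read 1.32, 2.47 and 1.30 in w1118, 2.85, 1.83 and 2.66 in the mutant, and 4.95, 4.84 and 4.76 in 69B>Cbt. Its 69B>Cbt arrays lay above all others, by 3.16 ± 0.37 log2 units on the mean against w1118 (SE, adjusted p = 0.0191 in limma). The Obp99b call was lost without mutant replicate 3 (adjusted p = 0.0531), w1118 replicate 1 or 3 (0.0624 and 0.0823) or 69B>Cbt replicate 1, 2 or 3 (0.109, 0.0902 and 0.119). The Obp99b difference was 3.54 without w1118 replicate 2, with an adjusted p of 0.000103. Without that array 11 of 47 odorant-binding protein genes were called higher and 3 lower in 69B>Cbt, where 40.6% of all probe sets were called. Of the pickpocket channels 6 were called higher there, and of the TRP channels 2 higher and 1 lower. The glutamate receptors gave 1 lower, the accessory genes 1 higher, and the CheA and CheB genes 0.

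**Figure D4:**
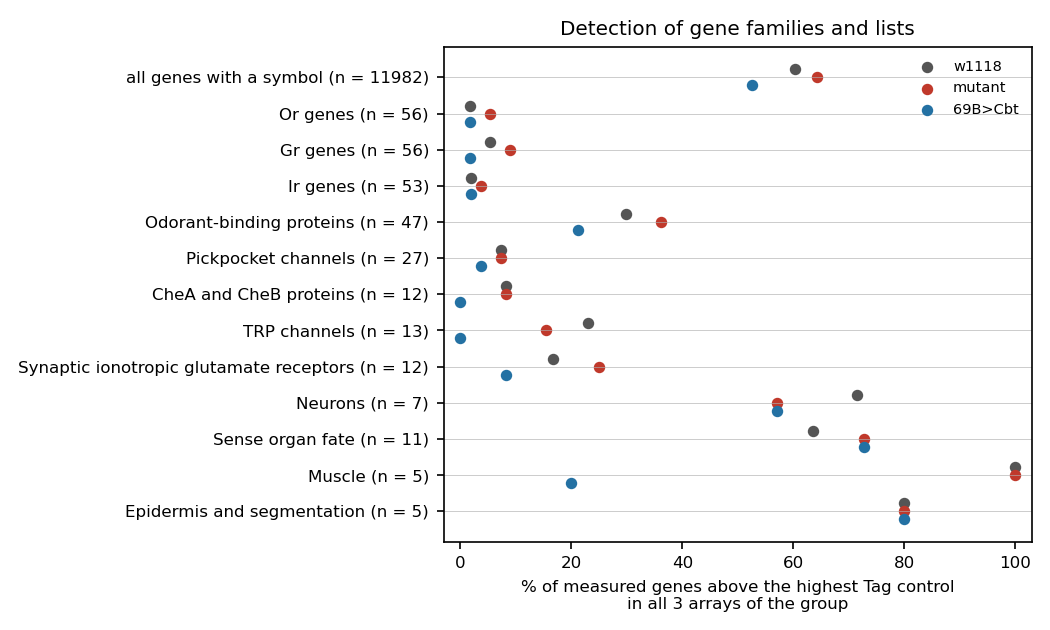
Percent of measured genes above the highest Tag control in all 3 arrays of a group (horizontal axis), for all named genes, the 3 receptor families and related gene lists (vertical axis, with the number of genes measured). Points are coloured by group. The 3 receptor families lie below 10% in every group, against 60.3%, 64.3% and 52.5% of all named genes.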

How the data were processed

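The deposited values were log2 levels, a single one for each probe set on each array. Per the submitters' processing notes the tools were RMA, affy and limma, with no version, chip definition file, filter or genome build stated. The arrays did not have 1 distribution, since their upper quartiles ran from 3.14 to 4.03 log2 units, and their Tag levels differed too, which bears on dim genes. No detection flags were used here.

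The platform annotation gave the gene of each probe set. A gene was counted as above background in a group when it exceeded the highest of 17 Tag controls on each of 3 arrays. Of the 165 genes, 12 passed this in some group, and a gene could pass through the group where it is high. Comparisons used limma 3.58.1 (R 4.3.3). A single model with a mean per group was fitted to all 9 arrays and 18769 probe sets, leaving out 183 Affymetrix controls, with two-sided moderated tests, an F test over the groups and Benjamini-Hochberg adjustment at 0.05. The ± after a difference is its SE, and after a level the SD. Where a group was above background on no array, the fold is a lower bound, taken from the group mean of the control level or of the gene, whichever was higher on each array. The steps were tested on simulated data. With 3 arrays per group, the number of arrays limits the precision.

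Genes were named where they were called, above background in all 9 arrays, among the 10 of highest mean or the 5 of smallest p per comparison, co-receptors or carbon dioxide receptors, detected in all 3 arrays of 1 group and in none of another, or 1 of the 3 nearest to the threshold on each side. Called genes of the other lists and cbt were added. The members and lists were chosen with earlier results of these data known. Replicate numbers were not used to pair the samples in the main fit. Same-numbered arrays of different groups deviated with correlations of −0.37 to 0.26, but 3 arrays per group cannot exclude a pairing. Alternatives were equal medians, cyclic loess, a filter on background, array weights, an intensity trend, a replicate block, fits of 2 groups, w1118 replicate 2 as the only control, each array left out, other background levels and other choices of probe set. The values without w1118 replicate 2 for counts without overlap, shares above 0 and list counts were added after seeing the data.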

Additional observations from a re-analysis of the deposited data

Results flagged for a closer look

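A probe set that names both Or19a and Or19b, and so stayed outside the counts of receptor genes, was above background on all 3 mutant arrays and on none of the w1118 arrays. The mean log2 level of Or19b;Or19a was 1.09 ± 0.18 in the mutant (SD, n = 3), from 1.09, 0.91 and 1.26 on its arrays. It was 0.34 ± 0.20 in w1118 (0.20, 0.56 and 0.26) and 1.04 ± 0.12 in 69B>Cbt (0.91, 1.05 and 1.15), where 1 array exceeded the control level. The mutant level of Or19b;Or19a was at least 1.31-fold higher than in w1118 (adjusted p = 0.19 in limma), and for 69B>Cbt against w1118 the adjusted p was 0.0873, with no fold given. Neither passed with all arrays at equal weight. Both passed in 2 of 17 other settings, namely array weights (adjusted p of 0.00132 and 0.00115) and without w1118 replicate 2 (adjusted p of 0.00403 and 0.00263).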

How the results depend on the processing

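Over 17 other settings, Or71a stayed higher than in w1118 in each, by 1.73 to 2.15 log2 units in the mutant and 1.52 to 2.16 in 69B>Cbt, and was called in 8 and 10 of them (adjusted p in limma of 0.00114 to 0.215 and 0.000639 to 0.141). With a replicate block, 0 receptor genes were called in any comparison or in the F test (Or71a at adjusted p of 0.0823 and 0.0907). Of all probe sets, that block left 0.0586%, 0.0906% and 0.16% called in the 3 comparisons and 0.123% in the F test. With w1118 replicate 2 as the only control, 0 were called in either comparison with w1118 (0.0594 and 0.0966). When only the 2 groups compared were fitted, 0, 0 and 1 were called, the last being Gr64f in 69B>Cbt against the mutant. Of all probe sets 0.016%, 0.0959% and 13.8% were called in these fits. Array weights gave 6, 42 and 10 calls in the 3 comparisons and 31 in the F test, while 28.4%, 47.1%, 20.3% and 46.1% of all probe sets were called. Leaving out 1 array in turn gave 0 to 4 calls for mutant against w1118, 0 to 22 for 69B>Cbt against w1118, 0 to 2 for 69B>Cbt against the mutant and 0 to 15 in the F test. The highest of each range came without w1118 replicate 2. Genes above background then numbered 7 to 16 in w1118, 10 to 13 in the mutant and 3 to 7 in 69B>Cbt. With the second highest Tag control as background they were 11, 11 and 7, with 0.5 log2 units added 2, 2 and 1, and by group means 15, 15 and 9. Of 359 fold changes of single genes, 2 changed sign. Both were of Or19b;Or19a in 69B>Cbt against the mutant, which went from −0.05 to 0.035 without mutant replicate 3 and to 0.010 without 69B>Cbt replicate 1, with −0.14 to 0.035 over all arrays left out in turn. The causes of these changes were not tested. The dim signal, for which the control level of the array sets the count, limits what can be said of 100 genes to their being at background.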
